A study of Mus musculus with 6 samples.

Results

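The genes described here are the enzymes of glycolysis, the glucose transporter Slc2a1 and genes controlled by the hypoxia-inducible factor HIF, in the lens of mice with and without functional Tdrd7. The set was given by name and holds 34 genes, 18 glycolytic enzymes, 1 transporter, 2 flux control enzymes, 3 oxygen-sensing genes and 10 other HIF targets. The array names 19057 genes, and 31 of the 34 were represented by 59 probes among the 45281 probes of the array. Hk2, Gpi1 and Eno1 had no probe under their name and were not analysed here. A probe was called measured when its detection p-value was under 0.05 on at least 3 of 6 arrays, which 36 of the 59 probes and 25 of the 34 genes met. The 6 genes Pfkp, Pfkfb3, Ldhb, Bnip3, Adm and Car9 had probes but no measured one. Each gene is represented below by its brightest measured probe unless another is named.

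The adult lens has no blood supply of its own and lies in low oxygen, and its fiber cells lose their mitochondria as they mature. Glycolysis is therefore known as its main source of ATP. The lenses described here were younger, at postnatal day 4. Glucose enters through facilitative transporters, is phosphorylated by hexokinase, split by aldolase and oxidised stepwise to pyruvate, which lactate dehydrogenase turns to lactate. HIF is a transcription factor whose alpha subunit is marked for destruction by oxygen-dependent prolyl hydroxylases, and when oxygen is short it raises the glucose transporter Slc2a1, many glycolytic enzymes and other targets such as Vegfa and Bnip3.

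Total RNA of lens at postnatal day 4 was hybridised to 6 single-colour Illumina bead arrays. Of these 3 held RNA of mice null for Tdrd7, and the other 3 RNA of Tdrd7 heterozygous mice. Both genotypes were on a mixed background of C57BL/6J and C3A.Blia, and both carry at least 1 mutant Tdrd7 allele, since the heterozygous mice serve as the control and no wild-type lens was part of the comparison. The labels do not describe the allele or say whether an array holds 1 animal or a pool. The p-values therefore reflect only how much these 6 arrays vary, which may be technical. The letters a, b and c name the arrays of a genotype in table order and pair nothing.

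Raw Tdrd7 signal was 13045, 12473 and 13065 in heterozygous and 1266, 1202 and 1103 in null lens, always given in the order a, b, c, so the labels and the targeted transcript went together. Per array 13901 to 15765 probes were detected. Null array b stood apart, with rank correlations of 0.931 to 0.944 with the others, where the remaining 5 arrays correlated at 0.962 to 0.972. Several results that rest on it are given with and without it. Of the 13 probed lens fiber markers 12 were measured, and Gja3 was the 1 detected on no array. In whole lens RNA, fewer cells of a type and less RNA per cell cannot be told apart.

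No member passed the test between null and heterozygous lens. Of 25 measured genes 18 (72%) had a positive and 7 a negative difference in null lens, where 47.8% of the 8626 genes tested had a positive one. None of the 25 had an adjusted p under 0.05 in limma, the smallest being 0.964, and 0.0232% of all genes did. At an unadjusted p under 0.05 there were 4 genes, Pgk1, Eno2, P4ha1 and Hif1a, which is 16% of those measured beside 4.01% of all genes. Counted by probe, 6 of 36 measured probes did, beside 4.11% of all probes, and again none passed, beside 0.0137%. Among the 6 were an Egln1 probe detected on 1 heterozygous and 3 null arrays and a Pfkm probe detected on 2 and 3. Neither would be measured by its heterozygous arrays alone, so their positive sign was partly set by the filter. In 7 genes the normalised values of the genotypes did not overlap, 28% of the members beside 11.4% of all genes. The 6 with null arrays above heterozygous ones, a pattern found in 5.23% of all genes, were Pfkm, Aldoc, Pgk1, P4ha1, Egln3 and Hif1a. Eno2 lay the other way, as did 6.13% of all genes. By probe 8 of 36 lay higher and 1 lower, beside 5.43% and 5.47% of all probes. These members were chosen with earlier results of the same arrays known, so the shares are a description.

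**Figure D1:**
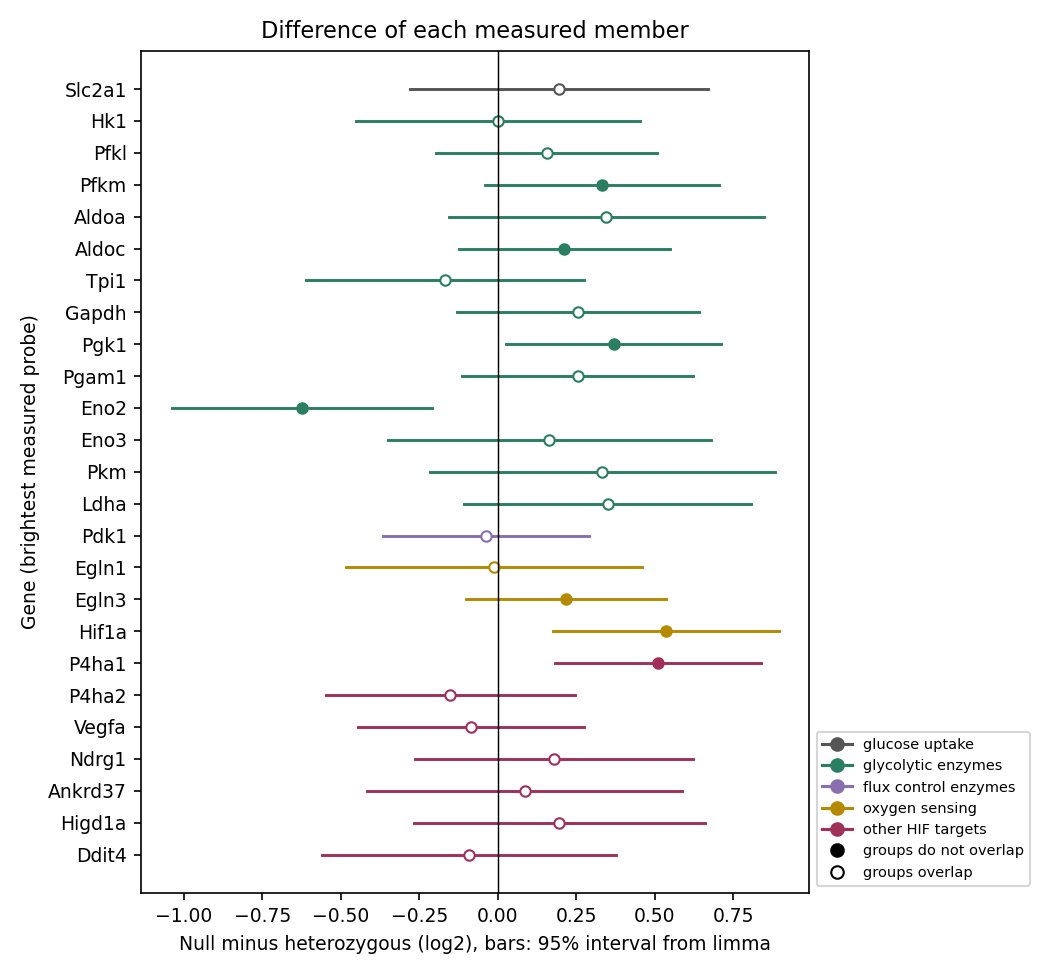
Null minus heterozygous difference on the log2 scale for the 25 measured genes, grouped by role, with 95% intervals from limma; filled points mark the 7 genes whose 3 null and 3 heterozygous values do not overlap. Eno2 lies farthest to the left at -0.62, and Hif1a (0.53) and P4ha1 (0.51) lie farthest to the right.

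Several glycolytic steps are run by more than 1 isoform, and the isoforms differed in whether they gave a signal above background. Of the lactate dehydrogenase subunits, Ldha, the form associated with lactate production, was detected on 6 of 6 arrays, and the single probe of Ldhb, the heart form, on 0 of 6. The Ldhb probe read 67.2 to 75.6, about the median raw signal of an array (69.0 to 76.6). The transcript record behind that probe is not a RefSeq mRNA, so its silence is a statement about the probe.

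Among phosphofructokinases, the enzymes of the committed step, the liver form Pfkl and the muscle form Pfkm each had a probe detected on all 6 arrays. A second Pfkl probe was detected on 1 array, and the 3 probes of the platelet form Pfkp on 0, 0 and 1 arrays. Aldoa, the muscle aldolase, read 1017 to 2035 raw units with detection on all arrays. Aldoc, the brain form, read 3198 to 4355 on a probe detected on all arrays, and a second Aldoc probe was detected on 2. Of the enolases, Eno3, the muscle form, read 1400 to 2442 and Eno2, the neuronal form, 113 to 172. Hexokinase 1, the entry enzyme, was near background at 77.2 to 89.2 and was detected on 3 of 6 arrays. The phosphoglycerate mutase Pgam1 read 248 to 349 on its brighter probe. Pgam2, a second mutase outside the given set, read 5219 to 6457 with detection on all arrays. Signals of different probes depend on how each one hybridises, so isoforms were not ranked by level.

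An undetected probe did not mean an undetected gene. Of 18 members with several probes 7 had 1 probe detected on all 6 arrays and another detected on none. They were Pgk1, Pkm, Pdk1, P4ha2, Vegfa, Egln3 and Hif1a, and in 4 of them (Pgk1, Vegfa, Egln3 and Hif1a) both probes carry the same transcript record. Pgk1 was read at 1204 to 2017 by 1 probe and at 65.9 to 76.7 by another. The silent isoforms Ldhb and Pfkp are therefore called not detected by these probes.

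**Figure D2:**
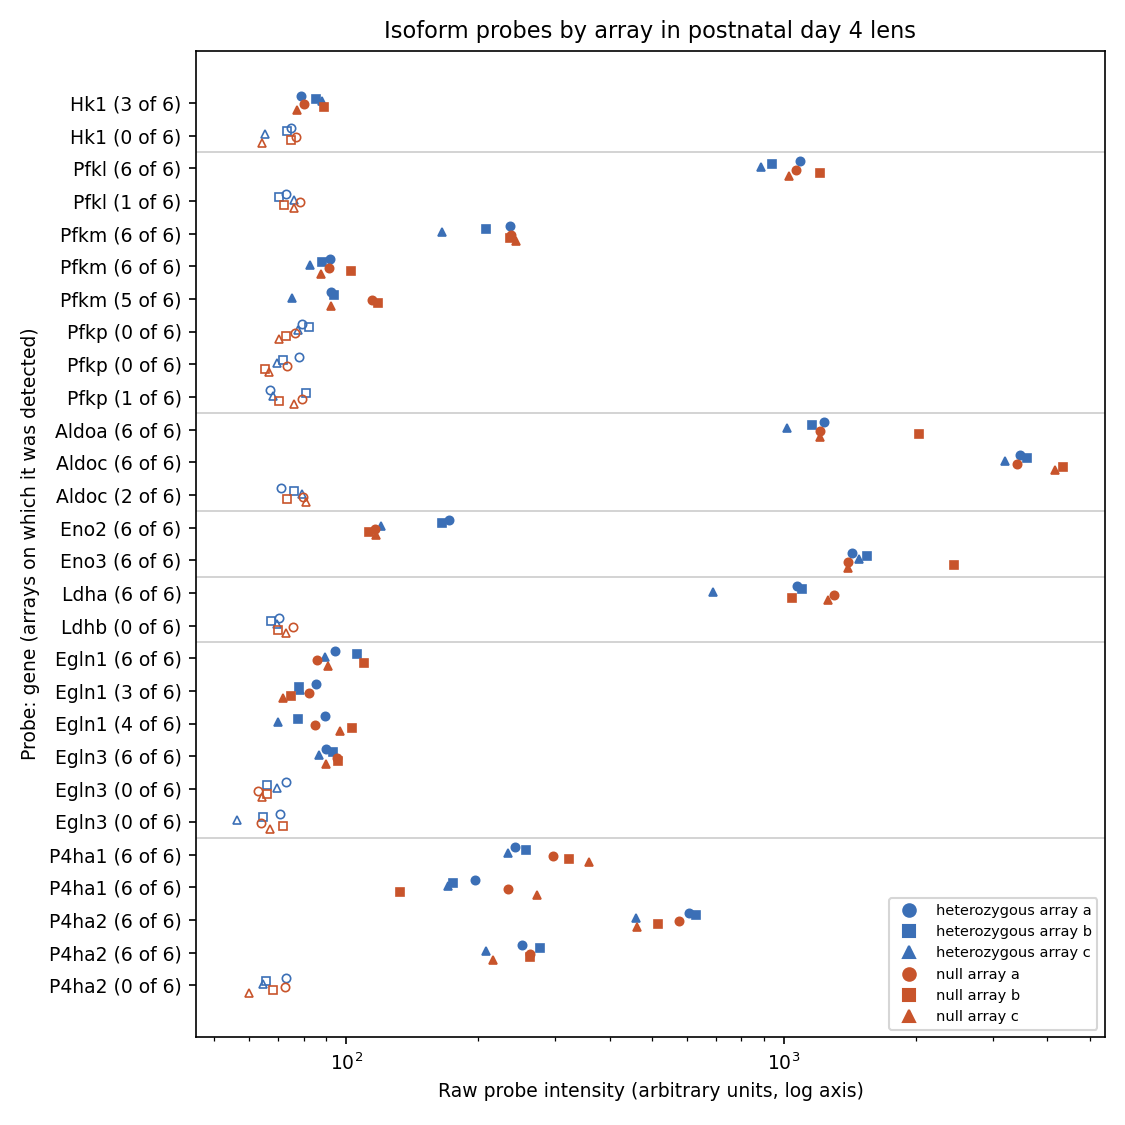
Raw intensity (log axis) of every probe of the isoform families on the 6 arrays; blue is heterozygous, orange is null, open symbols are probes that were not measured, and the count beside each name is the number of arrays with detection. The Ldhb and Pfkp probes are open throughout, while Pfkl and Aldoc each have 1 filled and 1 open probe, the open ones at 70.3 to 78.4 and 71.1 to 80.9.

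Slc2a1, which carries glucose across the cell membrane, read 3190, 3188 and 2027 in heterozygous and 3581, 2549 and 3232 in null lens. Heterozygous array c was the lowest and the genotypes overlapped. The log2 difference was 0.19 (SE 0.212, limma adjusted p = 0.964), and without heterozygous array c it was -0.0021. The protein is abundant in human red blood cells, and mouse red blood cells were not examined here. The median deviation of 5 measured red blood cell genes from their means was -1.17 on heterozygous array c on the log2 scale, 0.73 on null array a and 0.57 on null array b. Slc2a1 was lowest on heterozygous array c and second lowest on null array b. The same medians of lens epithelium genes were -0.32 on heterozygous array c and -0.28 on null array b, and those of mesenchyme genes -0.61 and -0.45. The part of any of these cells in the Slc2a1 values was not tested.

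Of 13 measured glycolytic enzymes 11 had a positive difference in null lens (84.6%, beside 47.8% of all genes) and none passed the test. The genotypes were separated in 4 of them, Pfkm, Aldoc, Pgk1 and Eno2, a share of 30.8% beside 11.4% of all genes. The median log2 difference of the enzymes was 0.25, against -0.01 for all genes. Null array b carried much of this median, which was 0.09 without that array and 0.12 when arrays were weighted by their quality. The median enzyme deviated from its gene's mean by 0.23 on null array b. The same deviation was -0.03 and 0.02 on the other null arrays and -0.14 to -0.04 on the heterozygous arrays.

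Pgk1, which makes the first ATP of the payoff phase, read 1579, 1447 and 1204 in heterozygous and 1648, 1791 and 2017 in null lens. Every null array lay above every heterozygous one. The log2 difference was 0.37 (SE 0.154, 95% interval 0.02 to 0.71, limma adjusted p = 0.964), and it ran from 0.29 to 0.45 when each array was left out in turn. Pgk1 was the only enzyme with a positive difference whose representative probe had an unadjusted p under 0.05.

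Pfkm was read by 3 measured probes, all of which had separated genotypes after normalisation, and the brightest also in the raw signals. The brightest read 236, 208 and 166 in heterozygous and 238, 237 and 244 in null lens, a log2 difference of 0.33 (SE 0.166). The others differed by 0.32 and 0.76, the latter at signals of 75.4 to 118 and with detection on 5 of 6 arrays. The brightest probe differed by 0.20 without heterozygous array c, the lowest of the 6. Probes of 1 gene are not independent replicates. Pfkl read 1090, 940 and 887 in heterozygous and 1064, 1209 and 1026 in null lens, and these overlapped (0.16, SE 0.157).

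Aldoc read 3472, 3601 and 3198 in heterozygous and 3408, 4355 and 4161 in null lens. The raw signals overlapped, while the normalised ones were separated by a narrow margin, 11.75 at the top of the heterozygous and 11.78 at the bottom of the null arrays on the log2 scale. The difference was 0.21 (SE 0.15), and 0.12 without null array b. Ldha, at the end of the pathway, read 1072, 1098 and 689 in heterozygous and 1302, 1046 and 1264 in null lens. The groups overlapped, and the difference of 0.35 (SE 0.204) was 0.15 without heterozygous array c.

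Aldoa, Eno3, Pkm and Gapdh shared a pattern that was picked out after their values were seen: each was highest on null array b. Aldoa read 1207, 2035 and 1210 in null and 1236, 1159 and 1017 in heterozygous lens. Pkm, which encodes pyruvate kinase, read 2400, 4391 and 2362 against 2286, 2373 and 2363. Eno3 read 1400, 2442 and 1401 against 1431, 1545 and 1488. On the log2 scale null array b exceeded the mean of the other 5 by 0.95 for Pkm, 0.85 for Aldoa, 0.77 for Eno3 and 0.53 for Gapdh, the glyceraldehyde-3-phosphate dehydrogenase often used as a reference gene.

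Without that array the differences of these 4 genes were smaller in size. The log2 differences then were 0.02 for Pkm, 0.08 for Aldoa, -0.12 for Eno3 and 0.10 for Gapdh, where with it they were 0.33, 0.35, 0.16 and 0.26. Of 13 enzymes 7 had their highest value on null array b (53.8%), where 27% of all genes tested did. Tpi1, which interconverts the triose phosphates, was at its lowest there, at 1500 against 1841 to 2339 elsewhere, so the enzymes did not move as 1 block on that array. Aldoa, Eno3 and Pkm are abundant in muscle, and of 10 probed striated muscle markers 5 (Acta1, Ckm, Tnnt3, Tnnc2 and Tnni2) were detected on no array. The 2 measured ones were Actn2, at 1336 to 1489 in heterozygous and 903 to 1201 in null lens, and Mylpf, at 84.9 to 97.1. Actn2 made up nearly all of the list's summed signal of 1431 to 1577 in heterozygous and 1001 to 1289 in null lens. The part of muscle in these values was not tested. Gapdh itself read 4897, 4861 and 5085 in heterozygous and 4956, 6948 and 5741 in null lens.

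**Figure D3:**
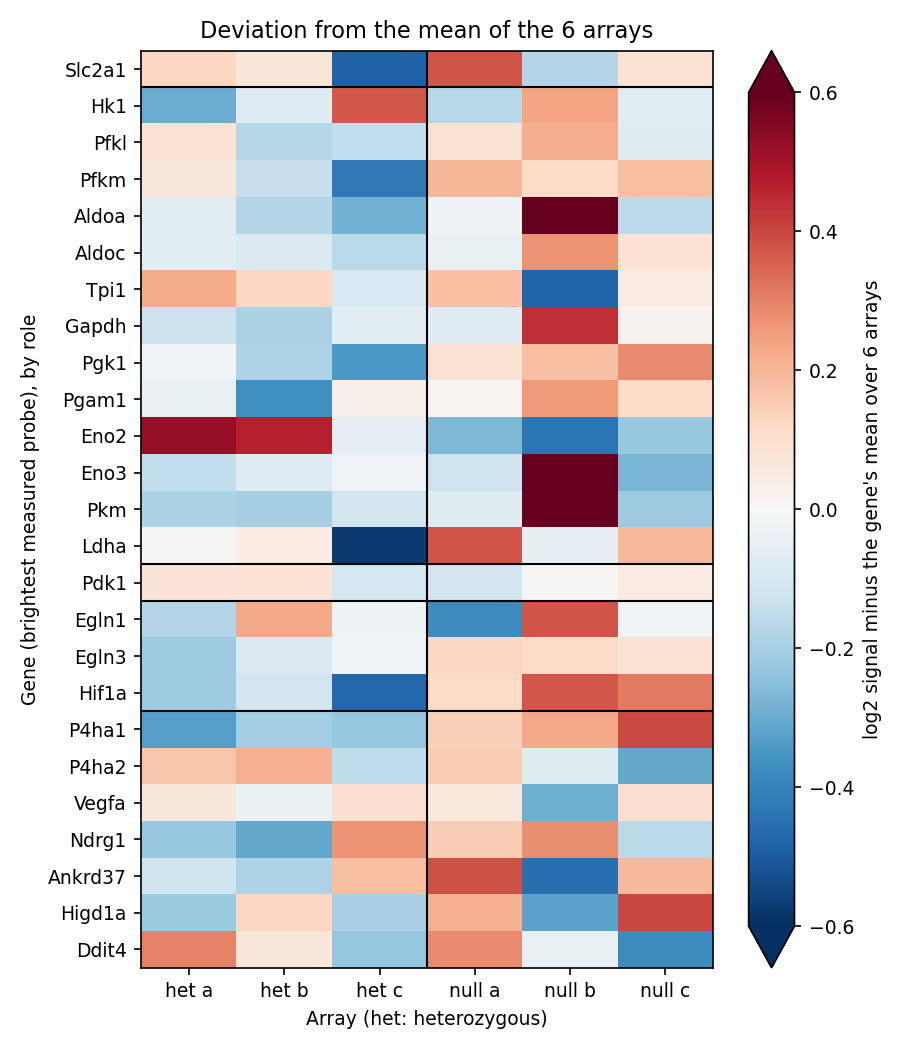
Deviation of the normalised log2 signal from each gene's mean over 6 arrays for the 25 measured genes, grouped by role; red is above and blue below the mean. Aldoa, Gapdh, Eno3 and Pkm are red on null array b, Tpi1 is blue there, and Ldha, Pfkm, Slc2a1 and Hif1a are blue on heterozygous array c.

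Tpi1 and Eno2 were the 2 enzymes with a negative difference. The 3 measured Tpi1 probes differed by -0.17, -0.09 and -0.19, and the first of these, the brightest, was 0.03 without null array b. Pgam1, which moves the phosphate of phosphoglycerate, differed by 0.25 (SE 0.164) on its brighter probe and by -0.16 (SE 0.289) on its dimmer one, so its probes disagreed in sign. Hk1 read 79.0, 85.4 and 87.9 in heterozygous and 80.1, 89.2 and 77.2 in null lens, close to background, and differed by 0.00 (SE 0.202).

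Eno2 read 172, 165 and 120 in heterozygous and 117, 113 and 117 in null lens. Heterozygous array c, at 120, lay just above the null arrays, and arrays a and b well above them. The log2 difference was -0.62 (SE 0.186, 95% interval -1.04 to -0.21, limma adjusted p = 0.964), a 1.54-fold lower signal. Leaving out each array in turn gave -0.81 to -0.52, and the authors' deposited values, a straight-line rescaling of the raw signals, gave -0.33. Eno2 is a marker of neurons and endocrine cells. Of 14 probed markers of retina and neurons 9 were detected on no array, among them Snap25, Stmn2, Syt1 and Gap43. The 3 measured ones, Crx, Rbp3 and Elavl4, summed to 240 to 244 raw units in heterozygous and 228 to 248 in null lens. They read 67.8 to 90.6 each, close to background, and Crx was detected on 0 heterozygous and 3 null arrays. The part of neurons in the Eno2 values was not tested.

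Of the 2 genes that direct flux, Pdk1 was measured. Pdk1, a HIF target that encodes a pyruvate dehydrogenase kinase, read 132, 131 and 111 in heterozygous and 116, 125 and 122 in null lens. The groups overlapped, with a difference of -0.04 (SE 0.146, 95% interval -0.37 to 0.29). Pfkfb3, which makes the activator of phosphofructokinase, was detected on no array.

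The oxygen-sensing genes included the largest positive difference among representative probes. Hif1a, the oxygen-regulated subunit itself, read 170, 176 and 137 in heterozygous and 188, 223 and 213 in null lens. All null arrays lay above all heterozygous ones. The difference was 0.53 on the log2 scale (SE 0.161, 95% interval 0.17 to 0.90, limma adjusted p = 0.964), a 1.45-fold higher signal, and ran from 0.43 to 0.61 with each array left out. In the authors' deposited values it was 0.32. The other 2 Hif1a probes were detected on no array. HIF activity is set mainly by the stability of the protein, which an RNA measurement does not read.

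Egln1 and Egln3 are prolyl hydroxylases that mark HIF for destruction, and Egln3 is itself a HIF target. Egln3 read 89.7, 93.3 and 86.6 in heterozygous and 95.3, 95.7 and 90.1 in null lens. Its raw values overlapped and its normalised ones did not, with a difference of 0.22 (SE 0.142). That difference was 0.078 with no normexp background step and 0.077 in the authors' deposited values. The brightest probe of Egln1 read 94.1, 106 and 89.7 in heterozygous and 86.0, 109.6 and 90.9 in null lens, which overlapped. Egln1 differed by -0.01 (SE 0.211) on that probe, by 0.69 (SE 0.221) on a second and by -0.07 (SE 0.161) on the dimmest. The second was detected on 1 heterozygous and 3 null arrays. It counted as measured only through the null arrays, so its positive sign was partly set by the filter. All Egln1 and Egln3 signals were under 110 raw units, close to background, and the Egln1 probes did not give 1 direction.

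The other HIF targets did not share a direction. Of 10 genes 7 were measured, 4 with a positive (57.1%, beside 47.8% of all genes) and 3 with a negative difference, and 0 passed. Their median log2 difference was 0.09, but -0.09 without null array a and 0.24 with array weights. In 1 of the 7, P4ha1, the genotypes did not overlap, a share of 14.3% beside 11.4% of all genes.

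P4ha1 encodes a catalytic subunit of the collagen prolyl 4-hydroxylase, an enzyme that collagen folding depends on. Its brighter probe read 243, 257 and 234 in heterozygous and 297, 323 and 359 in null lens. All 3 null arrays lay above the heterozygous ones. The difference was 0.51 (SE 0.147, 95% interval 0.18 to 0.84, limma adjusted p = 0.964), a 1.42-fold higher normalised signal. It ran from 0.44 to 0.56 with each array left out. With no normexp background step it was 0.39, and its lowest value under any alternative processing was 0.35. The dimmer probe read 197, 175 and 171 in heterozygous and 234, 133 and 272 in null lens. It put null array b below every other array and differed by 0.19 (SE 0.334). The transcript record of the dimmer probe is a RefSeq mRNA and that of the brighter one is not, so the separated values of P4ha1 rest on the latter.

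P4ha2, the second catalytic subunit, read 606, 629 and 460 in heterozygous and 576, 516 and 461 in null lens and differed by -0.15 (SE 0.177), with a second probe at 0.02. Vegfa, the angiogenic growth factor, read 508, 472 and 473 in heterozygous and 475, 401 and 517 in null lens. Its difference was -0.09 (SE 0.161), and a second probe gave 0.04. For both genes the genotypes overlapped.

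Ndrg1, a stress-responsive gene repressed by N-myc, read 2076, 2023 and 2812 in heterozygous and 2557, 2925 and 2272 in null lens on its brighter probe. Its 2 probes differed by 0.18 and 0.03, and both overlapped. The first ran from 0.070 without heterozygous array b to 0.35 without heterozygous array c. Higd1a, a mitochondrial protein, read 105, 118 and 96.3 in heterozygous and 116, 99.0 and 124 in null lens (0.20, SE 0.208). This difference ran from 0.044 without null array c to 0.40 without null array b. Ddit4, an inhibitor of mTOR signalling, read 177, 157 and 127 in heterozygous and 167, 149 and 124 in null lens (-0.09, SE 0.209). Ankrd37 was detected on 2 heterozygous and 2 null arrays and differed by 0.09 (SE 0.224). None of these separated the genotypes. Bnip3, which acts in mitochondrial removal, the peptide gene Adm and the carbonic anhydrase gene Car9, with 1, 1 and 3 probes, were detected on no array.

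**Figure D4:**
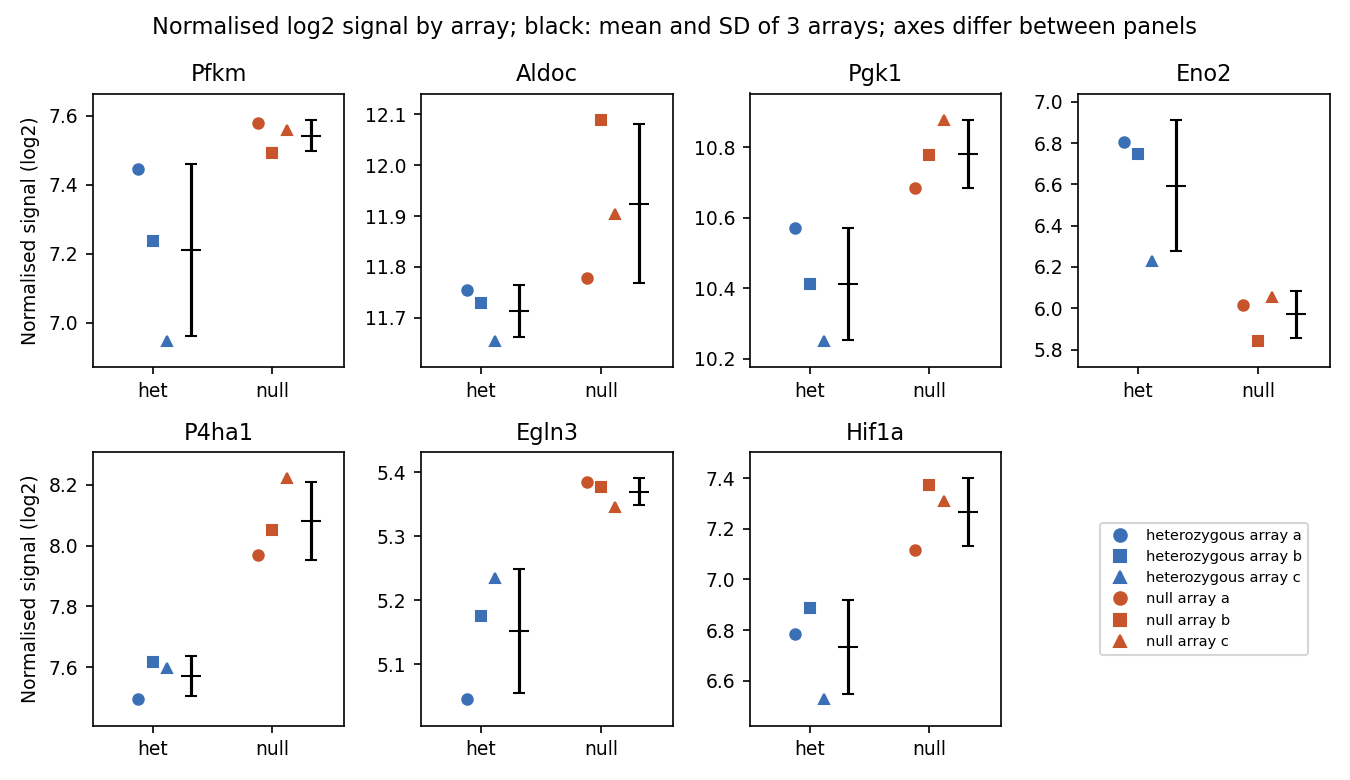
Normalised log2 signal on each array for the 7 members whose genotypes do not overlap, with the mean and SD of 3 arrays in black and a separate axis for each gene. The gap between the genotypes is narrow for Aldoc and wide for P4ha1, and in Pfkm, Aldoc, Pgk1 and Hif1a heterozygous array c is the lowest.

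Whether 2 isoforms differed unequally was tested on their within-array log2 difference, which removes anything that shifts a whole array. In 5 pairs an exact permutation test, two-sided, cannot go below p = 0.1 with 3 arrays against 3. P4ha1 minus P4ha2 went from -1.43 ± 0.223 (SD, n = 3) in heterozygous to -0.76 ± 0.355 (SD, n = 3) in null lens, a shift of 0.66 that reached that smallest value (exact p = 0.1, adjusted over 5 pairs p = 0.5) and uses the brighter P4ha1 probe. Eno2 minus Eno3 shifted by -0.79 (exact p = 0.2), and by -0.44 without null array b. It was -1.01 without null array c. Pfkl minus Pfkm shifted by -0.18, Aldoa minus Aldoc by 0.13 and Egln1 minus Egln3 by -0.23, with exact p of 0.4, 0.7 and 0.4. With an array left out these ran from -0.28 to -0.078, from -0.047 to 0.29 and from -0.41 to -0.035. P4ha1 minus P4ha2 ran from 0.47 to 0.83.

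Promoter sequence is shown for the HIF target and the enzyme with the smallest p, P4ha1 and Eno2, which differed in opposite directions, and for Pgk1, added after its values were seen. The sequences are RefSeq's for GRCm38.p6 and hold only bases before the gene's outermost annotated start, so fewer for P4ha1, whose gene start lies upstream of the start of its window's transcript, written 5′ to 3′ in the direction of transcription. Capitals mark matches to the HIF core motif, searched as ACGTG and GCGTG on both strands, so that CACGT and CACGC are matches on the other strand. P4ha1 is on chr10:59323046-59323196, plus strand, Eno2 on chr6:124769674-124769923, minus strand, and Pgk1 on chrX:106186850-106187099, plus strand.
P4ha1: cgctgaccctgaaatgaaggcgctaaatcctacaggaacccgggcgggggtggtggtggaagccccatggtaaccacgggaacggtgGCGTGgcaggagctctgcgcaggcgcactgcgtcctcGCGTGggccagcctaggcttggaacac
Eno2: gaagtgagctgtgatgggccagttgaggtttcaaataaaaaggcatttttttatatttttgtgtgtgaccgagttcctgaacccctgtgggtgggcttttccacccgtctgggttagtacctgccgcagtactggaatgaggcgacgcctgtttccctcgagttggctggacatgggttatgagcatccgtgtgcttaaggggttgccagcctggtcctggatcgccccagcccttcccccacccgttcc
Pgk1: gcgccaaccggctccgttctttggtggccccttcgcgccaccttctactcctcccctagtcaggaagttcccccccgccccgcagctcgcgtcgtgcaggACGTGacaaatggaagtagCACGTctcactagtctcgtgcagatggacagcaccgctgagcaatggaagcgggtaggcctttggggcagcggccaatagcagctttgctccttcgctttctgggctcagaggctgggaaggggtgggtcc

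The P4ha1 stretch of 151 bases holds GCGTG at 2 positions, 64 and 27 bases before the start. Pgk1 holds ACGTG 150 and CACGT 131 bases before it, and the 250 bases of Eno2 hold no match. In windows of 300 bases, 250 before and 50 after a start, 30 of 33 members had at least 1 match in a window, Eno2, Tpi1 and Gpi1 being those without. The share was 90.9%, beside 52.3% of 17492 protein-coding genes. ACGTG on either strand was found in 8 of 9 other HIF targets and 10 of 18 enzymes, beside 23.2% of protein-coding genes. Such a match is a description of the letters and not a site, and members were partly chosen as HIF targets.

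The wider pathway, read through lists drawn from general knowledge, had no gene past the threshold. Of 26 further genes of glycolysis and gluconeogenesis 9 were measured, 4 with a positive and 5 with a negative difference, a median of -0.08 and the smallest p for Pfkfb4 (-0.21) and G6pc3 (0.20). The list for glucose and lactate transport had 3 measured genes of 12, Slc2a8 at 0.13, Bsg at -0.05 and Slc2a10 at -0.01. Bsg is not itself a transporter, and no Slc16a lactate transporter of the list was measured. Of 12 genes around pyruvate dehydrogenase 7 were measured, 3 with a positive and 4 with a negative difference. Among them Dlat, its acetyltransferase subunit, had a difference of -0.27 (SE 0.149) at signals of 83.4 to 98.7, close to background. It was the 1 gene of the 7 with separated genotypes, beside 11.4% of all genes. Pdp2, its phosphatase, had a difference of -0.25 on its brightest probe and of 0.01 and 0.23 on others.

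The further HIF pathway and target list had 26 measured genes of 37, 12 with a positive and 14 with a negative difference, and a median of -0.01. Plod1, a collagen lysyl hydroxylase, differed by 0.54 (SE 0.188) at signals of 69.6 to 98.7, which overlapped in raw units and not after normalisation. Egln2, another HIF prolyl hydroxylase, differed by 0.46 (SE 0.236), with 124 on null array b against 84.1 to 94.0 elsewhere. Of these 26 genes 1 had an unadjusted p under 0.05, a share close to that of all genes tested.

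Markers of other cells were read beside these genes. Of 9 measured vascular genes 7 had a positive and 2 a negative difference, the latter Pecam1 (-0.10) and Tek (-0.24), with a median of 0.40. The vascular genes summed to 1206 to 1427 raw units in heterozygous and 1294 to 1582 in null lens. Emcn was detected on 0 heterozygous and 3 null arrays and Flt1 on 1 and 3. Both, and Rgs5, were counted as measured only through the null arrays, so their positive sign was partly set by the filter. Rgs5, a pericyte gene, differed by 1.08 (SE 0.179, limma adjusted p = 0.362), with detection on 1 heterozygous and 3 null arrays. Tie1 was detected on no array, and Cdh5 and Vwf had no measured probe. Red blood cell genes summed to 563 to 1034 in heterozygous and 741 to 1335 in null lens, with Alas2 and Epb42 detected on no array. The 2 measured macrophage genes, both close to background, summed to 166 to 178 and 157 to 177, with Adgre1, Lyz2, C1qa, C1qb and Tyrobp detected on none. Mesenchyme genes summed to 415 to 776 and 481 to 660, with Col1a1, Col3a1, Lum and Dcn detected on none. Lens fiber genes summed to 343565 to 371749 in heterozygous and 313224 to 356456 in null lens. Crystallin probes near the brightest signals of the arrays make up most of that sum, so dimmer fiber genes hardly move it. Of the 12 measured fiber genes 7 had a positive and 5 a negative difference. The smallest unadjusted p belonged to Cryab (-0.44) and Lctl (0.32). Lens epithelium genes summed to 20247 to 21503 in heterozygous and 16374 to 21284 in null lens. The part of vessels and blood in the values of Hif1a, P4ha1 and the enzymes was not tested.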

How the data were processed

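Intensity per probe was read from 6 Illumina bead arrays of postnatal day 4 lens, 3 Tdrd7 null and 3 Tdrd7 heterozygous. The deposited table of raw intensity, per the file headers, holds a signal and a detection p-value for each probe and array, with no normalisation stated. The deposited detection p-values move in equal steps and were read as ranks among the array's negative control beads. The labels name no scanner software. A second deposited table of normalised intensity was found to be a straight-line rescaling of 1 raw column per array and served as an alternative.

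Raw intensity was background-corrected by normexp, using the 936 negative controls that the steps of the detection p-values imply, given an offset of 16, quantile normalised and put on the log2 scale (neqc in limma 3.58.1, R 4.3.3). Probes with a detection p-value under 0.05 on at least 3 arrays were kept, 14636 probes of 8626 genes. Null and heterozygous arrays were compared with limma's lmFit and eBayes without covariates, and p-values were adjusted by Benjamini-Hochberg over all kept probes. The number of arrays limits the precision.

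Genes were named through the platform annotation, which gave 1 symbol for 34885 probes, several for 18 and none for 10378. The brightest measured probe, by its mean over all arrays, stands for a gene. Every member was named, with values on each array for isoform families, for separated genes and for the genes of smallest p in each role. The wider lists are represented by their 2 genes of smallest p, other markers, Slc2a10 and Pgam2 being named in addition. The members and lists were chosen with earlier results of these data known. Alternatives were no normexp step, median scaling, other filters on dim probes, another variance model, array weights, the mean of a gene's probes, the authors' table with and without a replicate block, and leaving out each array.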

Additional observations from a re-analysis of the deposited data

How the results depend on the processing

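No member passed the threshold under any alternative tried, and the 7 genes with separated genotypes (Pfkm, Aldoc, Pgk1, Eno2, P4ha1, Egln3 and Hif1a) kept their direction in all 14 that keep 1 probe a gene. The closest to the threshold was Eno2 with array weights (limma adjusted p = 0.173), the others with an unadjusted p under 0.05 reaching 0.245 (P4ha1), 0.305 (Hif1a) and 0.43 (Pgk1) at their smallest. Over all probes 2 passed, against 1 with no filter on dim probes, 13 with array weights and 1 to 4 when each array was left out, the lowest without any heterozygous array and the highest without null array b. Array weights gave null array b 0.208, the least of the 6. The number of separated members, 7, was 7 to 12 with an array left out, when 17.8% to 23.6% of all genes separated, and 12 without heterozygous array c. The enzyme median of 0.25 was 0.12 with array weights and 0.094 to 0.31 with an array left out, lowest without null array b. The median of the other HIF targets, 0.09, was 0.24 with array weights and -0.086 to 0.15 with an array left out, lowest without null array a, and 0.022 with no normexp step and 0.028 in the authors' table. Median scaling moved the median of all genes to 0.04.

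Small differences changed sign. With no normexp step Egln1 was at 0.00035, and with median scaling Egln1 was at 0.048 and Pdk1 at 0.021. With array weights Hk1 was at -0.085, Tpi1 at 0.022, Eno3 at -0.026, Vegfa at 0.021 and Ddit4 at 0.074. With an array left out Hk1 ran from -0.15 to 0.084, Ddit4 from -0.26 to 0.075, Egln1 from -0.20 to 0.18, Slc2a1 from -0.0021 to 0.33 and Pdk1 from -0.10 to 0.0089. Ankrd37 ran from -0.086 to 0.33, Tpi1 from -0.30 to 0.030, Eno3 from -0.12 to 0.35, Vegfa from -0.16 to 0.038 and Aldoa minus Aldoc from -0.047 to 0.29. Causes were not tested. Hk1 was not measured under the filter on all 6 arrays, nor without heterozygous array c, null array b or null array c.

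The authors' table carries replicate numbers. Deviations of same-numbered arrays from their group means correlated at 0.154, -0.159 and -0.148, and those of differently numbered arrays at -0.237 to 0.234. With 3 arrays a genotype these values cannot settle whether the numbers pair arrays. The same-numbered arrays did not stand out, and the numbers were not taken as pairs. With the replicate block 1 probe passed and without it 2, and no member passed either way.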

Other observations

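The pentose phosphate pathway draws glucose 6-phosphate away from glycolysis and supplies NADPH. Its measured genes were Pgls, Rpe, Rpia, Taldo1 and Tkt, 5 of 9 on a list that also held polyol genes, none of which was measured. Of the 5 genes 3 had a positive and 2 a negative difference, with a median of 0.04 on the log2 scale, and none passed the threshold in limma. The smallest unadjusted p belonged to Tkt, the transketolase, at -0.33 on its brightest probe and 0.22 and 0.25 on others, and Rpia, the ribose phosphate isomerase, at 0.20.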
